A study of Danio rerio with 35 samples.

Results

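The genes il4, il13, il10, igf1 and tgfb3 were followed in the adult zebrafish telencephalon, in whole tissue and in Mpeg1+ and Olig2+ cells sorted from it. They were taken by name, by matching gene identifiers to symbols, as genes of anti-inflammatory or type 2 cytokines and of growth factors, and they make up 5 of the 26282 genes in the 3 tables. All 5 had a row in the Mpeg1+ table (of 23158 genes) and in the Olig2+ table (of 25248 genes). The telencephalon table (24030 genes) held 4 of them, so il10 was not analysed there. Their identifiers are ENSDARG00000087909 (il4), ENSDARG00000077809 (il13), ENSDARG00000078147 (il10), ENSDARG00000094132 (igf1) and ENSDARG00000019367 (tgfb3). Zebrafish il4 and il13 are close relatives with shifting names: RefSeq lists il4/13b as a synonym of il4, and il4/13a and IL-4 as synonyms of il13.

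The study asked how loss of the zebrafish progranulin orthologs grna and grnb, and age, change the telencephalon. The paper names grn1 and grn2 as further, shorter granulin genes of zebrafish besides these. Old mutant, old wildtype, young mutant and young wildtype telencephala had 5 libraries each, with old fish at 18 months and young fish at 5 months per the labels (the study's methods give a range of ages for each). Mutants carried frame-shift alleles on both copies of grna and grnb, and wildtypes carried neither. Mpeg1+ cells were sorted by their mCherry signal from 5-month-old mutants (4 libraries) and wildtypes (3 libraries), all carrying the transgene Tg(mpeg1:mCherry), which marks macrophages including microglia. Olig2+ cells were sorted by DsRed from 5-month-old mutants and wildtypes (4 libraries each) carrying Tg(olig2:DsRed), which marks cells with an active olig2 promoter. Each sorted library pooled 3 telencephali.

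Interleukin 4 and interleukin 13 are the founding cytokines of type 2 immunity. In mammals both signal through the IL-4 receptor alpha chain to JAK kinases and STAT6, and drive macrophages toward a tissue-repair state. Interleukin 10 restrains macrophages through a receptor that activates STAT3. Insulin-like growth factor 1 acts through the IGF1 receptor, is buffered by IGF binding proteins and is made in the mammalian brain by neurons, glia and microglia. Transforming growth factor beta 3 is secreted in a latent form that integrins and thrombospondin 1 can activate, and signals through serine/threonine kinase receptors to SMAD proteins; its relative TGF-beta 1 is needed for mammalian microglia to keep their identity.

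Values are normalised read counts, that is, gene counts divided by a size factor for each library, and each of the 3 tables was scaled by itself, so comparisons stay within a table. Libraries held 13.9 to 29.4 M gene reads (1 M is 1e6) in telencephala and 25.7 to 31.6 (mutant) and 6.11 to 29.1 (wildtype) M in Mpeg1+ cells. Olig2+ libraries held 6.38 to 21.8 M reads in mutants and 37.1 to 59.3 M in wildtypes. Some libraries departed from their labels or from each other. In whole tissue, 7 telencephalon libraries carried high levels of pineal genes (a mean of 10.1 to 10.8 on the log2 scale, against 3.10 to 5.39 in the other 13). They were old mutant 4, old wildtype 1, young mutant 2 and 4, and young wildtype 1, 4 and 5. Among the Mpeg1+ libraries labelled mutant, 1 and 2 were nearly alike, and so were 3 and 4 (r of 0.9915 and 0.9916 within these pairs, against 0.8956 to 0.9021 across them). The chi-square per degree of freedom between their reads was 1.788 for 1 and 2 and 9.778 for 3 and 4. Across the pairs it was 28.45 to 44.38. Read sampling alone gives about 1, so 3 and 4 in particular differed beyond it. Results are therefore also given with each such pair averaged. The targeted gene grnb was at 635, 588, 579 and 499 in the Mpeg1+ libraries labelled mutant, against 268, 51.3 and 258 in those labelled wildtype. That goes against the direction in whole telencephala, where grnb stood at 4.87 to 21.3 in the 10 mutant libraries, against 57.2 to 905 in the 10 wildtype libraries. In Olig2+ cells grnb was lower in mutants as well, at 57.5 to 205, against 307 to 472 in wildtypes. Frame-shift alleles can still be transcribed, so the transcript checks the Mpeg1+ labels only in part, and the Mpeg1+ groups are named by their labels throughout. Mutant Olig2+ library 2 had a total of 3.85e7 normalised counts, against 2.02e7 to 2.32e7 in the other Olig2+ libraries.

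In whole telencephalon, il4 was highest in young wildtype fish and lower by about the same amount in old wildtype and in young mutant fish. Of the 4 genes, il4 alone was called between old and young wildtype telencephala, that is, it passed an adjusted p of 0.05 with at least a 2-fold difference, as did 10.9% of all genes tested. Old wildtype libraries held 11.4, 6.88, 4.03, 2.56 and 5.77 normalised counts of il4, against 13.4, 15.8, 26.1, 15.2 and 14.9 in young wildtype libraries. The groups did not overlap, as was the case for 21.0% of genes. The log2 fold change, taken on normalised counts plus 1, was -1.43 (95% interval -2.40 to -0.46, limma adjusted p = 0.0231), and a two-sided exact permutation test gave 0.00794, the smallest p that 5 against 5 libraries allow. In whole tissue, fewer cells making a transcript and less transcript per cell cannot be told apart. The counts behind il4 are small, with 3 to 10 reads a library in old wildtype and 12 to 24 in young wildtype telencephala. Without old wildtype 3, old wildtype 4 or young wildtype 3 the difference stayed between -1.34 and -1.21 but its adjusted p became 0.0525, 0.0674 and 0.0590.

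Young mutant telencephala held 3.18, 5.61, 7.77, 15.9 and 1.99 normalised counts of il4. Library 4 reached into the young wildtype range, so the groups overlapped (23.1% of all genes did not), and the other 4 lay below it. The log2 fold change of young mutant against young wildtype was -1.42 (-2.39 to -0.45, limma adjusted p = 0.0291, exact permutation p = 0.0397), and il4 was the 1 gene of 4 called there, against 8.79% of all genes. The call was lost with edgeR (adjusted p = 0.0502) and without young mutant 1, 2 or 5 or young wildtype 3 (adjusted p from 0.05002 to 0.0884). Old wildtype and young mutant libraries, set against each other, differed by -0.01 (-0.98 to 0.96), an interval that spans nearly a halving to nearly a doubling.

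Old mutant telencephala held 11.5, 10.6, 10.5, 2.51 and 4.87 normalised counts of il4. These lay within the range of the young mutants, from which they differed by 0.30 (limma adjusted p = 0.742), and overlapped the old wildtypes (0.31, adjusted p = 0.709). From the lowest to the highest group mean, old wildtype (6.14 ± 3.40, SD, n = 5 in each group) was followed by young mutant (6.90 ± 5.53), old mutant (7.99 ± 4.03) and young wildtype (17.1 ± 5.11), and the lower 3 did not differ beyond their spread. The change with age in mutants minus that in wildtypes was 1.73 for il4 (0.35 to 3.10, limma adjusted p = 0.0845) and was not called. It was called without the 7 libraries high in pineal genes (3.00, adjusted p = 0.0238) and without old mutant 4, old wildtype 1 or young mutant 4, each left out alone. The difference between old and young wildtype was also present among the 13 remaining libraries (-1.94, limma adjusted p = 0.0242). There 4 old wildtypes held 2.561 to 6.882, against 15.82 and 26.08 in only 2 young wildtypes. Both results without the pineal-high libraries rest on these 2 young wildtypes, 1 of them young wildtype 3.

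The related cytokine gene il13 showed no such pattern. Its means were 6.04 ± 4.32 in old mutant, 7.73 ± 4.70 in old wildtype, 7.06 ± 6.46 in young mutant and 8.32 ± 5.77 in young wildtype telencephala (SD, n = 5 each). In each group the libraries spread widely, for example 12.3, 3.17, 7.03, 6.70 and 0.975 in old mutants and 2.01, 17.0, 4.35, 8.85 and 9.34 in young wildtypes. All 4 groups overlapped, and limma called il13 in none of the 6 telencephalon comparisons. It rested on 1 to 17 reads a library.

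**Figure D1:**
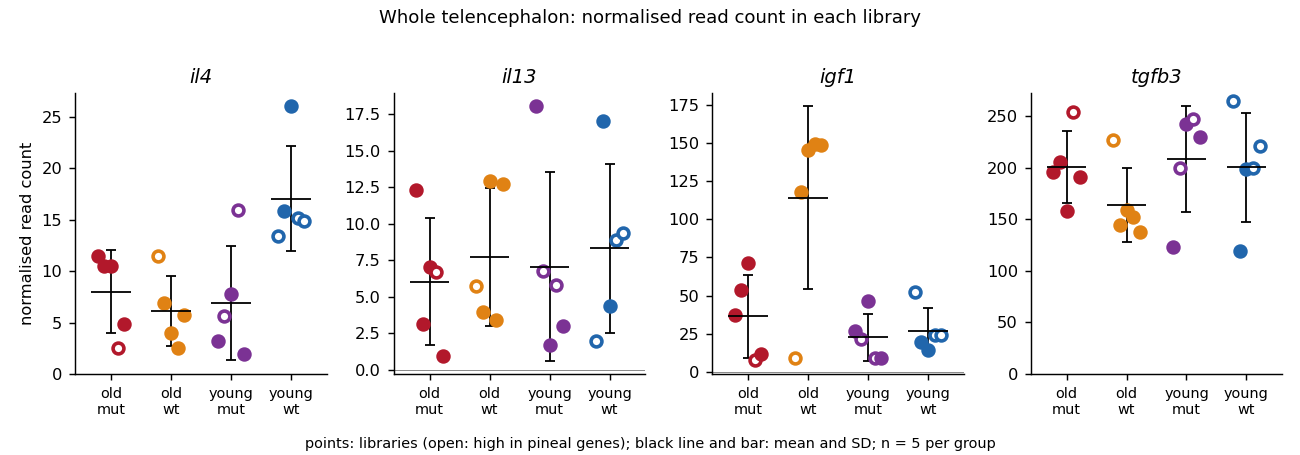
Normalised read counts of il4, il13, igf1 and tgfb3 in whole telencephalon, 1 point per library, by group from old mutant to young wildtype. Lines and bars give the mean and SD of 5 libraries, and open points are the 7 libraries high in pineal genes. For il4 the old wildtype points (2.56 to 11.4) lie below the young wildtype ones (13.4 to 26.1), and for igf1 4 old wildtype points (118 to 149) stand above every other library.

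The growth factor gene igf1 was high in 4 of the 5 old wildtype telencephala and low in the fifth. Old wildtype libraries held 9.16, 118, 146, 149 and 149 normalised counts. Old mutants held 36.9, 53.8, 71.2, 7.54 and 11.7, young mutants 26.5, 21.3, 46.6, 8.70 and 8.95, and young wildtypes 52.2, 19.5, 14.1, 24.0 and 24.3. Old wildtype 2 to 5 lay above all 15 libraries of the other groups, and old wildtype 1 lay near their lower end.

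Against young wildtypes, igf1 in old wildtypes differed by 1.72 on the log2 scale (0.18 to 3.25) with a limma adjusted p of 0.0764 and an exact permutation p of 0.0635, so it was not called. edgeR (2.06, adjusted p = 0.0203) and DESeq2 (2.08, adjusted p = 0.00435) on the recovered reads called it. Old wildtype 1 decided the limma result: without it the difference was 2.48 (adjusted p = 0.00257). Against young mutants, igf1 was called in old wildtypes at 2.09 (0.56 to 3.63, limma adjusted p = 0.0375, exact permutation p = 0.0397), the 1 gene of 4 called there, against 7.84% of all genes. That call was lost when these 2 groups were fitted alone (adjusted p = 0.0673) and without any one of old wildtype 2 to 5 or young mutant 2, 4 or 5. In old mutants igf1 stood at -1.59 relative to old wildtypes (limma adjusted p = 0.151, unadjusted p = 0.0431), and limma called 0 of the 4 genes there, against 2.81% of all genes (6.91% did not overlap). DESeq2 called igf1 in that comparison (-1.66, adjusted p = 0.0412), edgeR did not (-1.67, 0.0829), and without old wildtype 1 limma did (-2.35, 0.00769).

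Old wildtype 1 was also the only old wildtype library high in pineal genes. Among the libraries low in them, igf1 was 118 to 149.4 in old wildtypes (4 libraries), against 14.12 to 19.48 in young wildtypes (2 libraries). Among those high in them, old wildtype 1 held 9.16, against 24.02 to 52.19 in 3 young wildtype libraries. With all 7 pineal-high libraries left out, igf1 was called in old wildtypes against young wildtypes (3.00, limma adjusted p = 0.00685) and against young mutants (2.58, 0.00893), and in old mutants against old wildtypes (-1.92, 0.0313). With the pineal level as a covariate over all 20 libraries, the first of these was 1.297 (limma adjusted p = 0.161) and was not called. In that fit igf1 was still called in old wildtypes against young mutants, and not in old mutants against old wildtypes. The part of pineal tissue in the igf1 values was not tested beyond this.

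**Figure D2:**
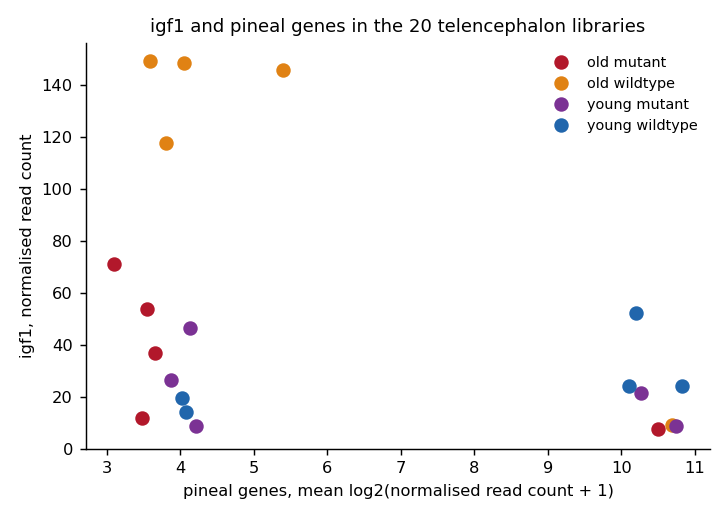
Normalised read count of igf1 in 20 telencephalon libraries (y axis) against the mean log2 level of 11 pineal genes (x axis), coloured by group. Libraries fall into 7 with high and 13 with low pineal levels. The 4 highest igf1 values (118 to 149) are old wildtype libraries on the low side, and old wildtype 1, on the high side, holds 9.16.

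For tgfb3, limma called no difference between the telencephalon groups. Old mutant libraries ranged over 158, 196 and 255 (lowest, median and highest), old wildtypes over 137, 153 and 227, young mutants over 123, 229.8 and 248, and young wildtypes over 119, 199.7 and 265. The groups overlapped in every comparison, and the log2 differences ran from -0.32 (old wildtype against young mutant, limma adjusted p = 0.257) to 0.30 (old mutant against old wildtype, 0.364). The highest old wildtype value, 227, was again that of library 1, while the other 4 lay at 137.3 to 159.5. With 1 library left out, old wildtype against young mutant ran from -0.50 to -0.25 (limma adjusted p from 0.0603 to 0.436). Old against young wildtype then ran from -0.44 to -0.16 (0.0904 to 0.617).

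Between old and young mutants limma called 0 of the 4 genes, 0 also at an unadjusted p under 0.05, and so did edgeR and DESeq2, against 1.32% of all genes tested, and all 4 overlapped, where 7.17% of genes did not. For the difference of the age effects limma called 0, with 1 (il4) at an unadjusted p under 0.05 and 0 by edgeR and DESeq2, against 6.04% of all genes.

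For each gene, the 3 others whose level most resembled it over the 20 telencephalon libraries were taken among genes with a mean of at least 50. These libraries share their group differences and the pineal split, so the correlations are descriptions only. For igf1 they were dio2, the deiodinase that activates thyroid hormone (r = 0.90), apcdd1l (0.87) and tspan9 (0.87). The median of dio2 was 2279 in old mutants, 6155 in old wildtypes, 1481 in young mutants and 905 in young wildtypes, and old wildtype 1, low in igf1, held 776.3. For il4 they were sox1, a transcription factor of neural progenitors (r = 0.83), hnrnpa0b (0.81) and ogfod1 (0.81). For tgfb3 they were fam161a (0.76), si:ch73-173h19.3 (0.74) and dnah1, an axonemal dynein (0.74), and for il13, at its few reads, ssb (0.71), polr2h (0.68) and ssr4 (0.66).

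The receptors and transducers around these ligands were counted in 3 lists: type 2 and il10 signalling (15 genes tested in telencephalon), the insulin-like growth factor system (24) and the transforming growth factor beta system (29). Beside these counts stand the shares of all genes called higher and lower: 5.21% and 5.66% in old against young wildtypes, 4.97% and 3.82% in young mutants against young wildtypes, 3.22% and 4.62% in old wildtypes against young mutants, 0.307% and 1.02% in old against young mutants, 1.23% and 1.58% in old mutants against old wildtypes, and 2.58% and 3.46% for the difference of age effects. The largest change in the type 2 and il10 list was in il13ra2 (ENSDARG00000039436), a receptor that binds interleukin 13 and in mammals acts largely as a decoy. Young mutants held 12.73, 11.23, 15.55, 42.04 and 16.91 normalised counts of il13ra2, against 88.33, 87.64, 139.1, 88.49 and 208.2 in young wildtypes, with no overlap (-2.65, SE 0.47, limma adjusted p = 0.000388). Old mutants held 18.87, 59.09, 75.6, 23.44 and 128.7, against 53.81, 54.07, 85.38, 57.19 and 24.23 in old wildtypes, and these overlapped.

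The change of il13ra2 with age in mutants exceeded that in wildtypes by 2.57 (limma adjusted p = 0.0139), and this and the call between young mutants and young wildtypes held in each of the 30 and 21 alternatives computed for them. Within each genotype the change with age was not called (1.42 in mutants, adjusted p = 0.0746, and -1.15 in wildtypes, 0.0630). DESeq2 called it in mutants. Against young mutants, il13ra2 was higher in old wildtypes (1.496, adjusted p = 0.0218), a call lost without old wildtype 3 or young mutant 2.

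In old against young wildtypes 1 gene of the type 2 and il10 list was higher and 0 were lower. It was stat3, the transducer of interleukin 10 among others, at 723 ± 116 in old and 364 ± 122 in young wildtypes (SD, n = 5 each, 1.04, limma adjusted p = 0.00456). Set to equal totals, tested with edgeR or DESeq2, or without old wildtype 5 or young wildtype 2 or 3, it was not called. In each of these the difference fell just under 2-fold. Over all 21 alternatives it was at least 0.903, with an adjusted p of at most 0.0151. The old mutant level of stat3, 364 ± 188, was lower than that of old wildtypes (-1.11, limma adjusted p = 0.00827). That call was lost with DESeq2, without old mutant 4 and without the pineal-high libraries. Each time the difference fell just under 2-fold, with an adjusted p of at most 0.0481 over all 21 alternatives. In old wildtypes stat3 was also called higher than in young mutants (1.1, limma adjusted p = 0.00411). That call held in each of 21 alternatives. The transducer of il4 and il13, stat6, named here for that role, averaged 53.6 ± 9.71 in old and 93.8 ± 19.96 in young wildtypes. Its difference of -0.79 had an adjusted p of 0.00660 but was under 2-fold, so it was not called.

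In the insulin-like growth factor list, 2 genes were higher and 0 lower in old than in young wildtypes. The insulin receptor gene insra stood at 1443 ± 56.8 against 702 ± 49.4 (1.04, limma adjusted p = 1.877e-09). At equal totals insra fell just under 2-fold (0.984) and was not called. The binding protein gene igfbp1b stood at 6.24 ± 3.94 against 1.48 ± 1.36 (1.57, limma adjusted p = 0.0398, called in 10 of 19 alternatives and not with edgeR). These igfbp1b counts are near the floor. Their mean over these 2 groups lay under the filter of 5, so igfbp1b was tested only through the mutant libraries. In young mutants against young wildtypes 2 were higher, igfbp1b and the adaptor gene irs2b (4359 ± 337 against 2132 ± 412, 1.05, 0.00975). The igfbp1b call held in 13 of 19 alternatives and that of irs2b in 19 of 21, and neither held without the pineal-high libraries. The ligand gene igf2a was lower in young mutants, at 504.5 ± 70.7 against 1045 ± 264 (-1.02, limma adjusted p = 0.000618). Without any one of young mutant 1 or 2 or young wildtype 1 or 2, igf2a fell just under 2-fold and was not called. Its adjusted p was at most 0.0168 over all alternatives. Old wildtypes against young mutants had a pappa gene (ENSDARG00000101090), coding for a protease that frees IGF from its binding proteins, higher (1.49, 0.0133) and the ligand gene igf2b lower (-1.09, 0.0206). The pappa call held in each of 20 alternatives, and that of igf2b was lost with the pineal covariate and without the pineal-high libraries.

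In the transforming growth factor beta list, 0 genes were higher and 2 lower in old than in young wildtypes. The matrix protein gene tgfbi averaged 499 ± 438 against 1333 ± 316 (-1.69, limma adjusted p = 0.00418), and itgb6, part of an integrin that activates latent TGF-beta, 3.17 ± 2.26 against 14.99 ± 7.79 (-1.94, 0.00269). The tgfbi call held in 20 of 21 alternatives and that of itgb6 in 19 of 20, among them the pineal covariate. Both were lost only without the pineal-high libraries, a fit that leaves 2 young wildtypes. In young mutants against young wildtypes the target gene ccn2b was higher (1.51, 0.0283). It was called in 13 of 20 alternatives, again not without the pineal-high libraries. Old wildtypes against young mutants had itgb8 and a smad3 gene (ENSDARG00000010207) higher and itgb6 lower, called in 11 of 21, 14 of 21 and 12 of 20 alternatives. The first 2 of these were lost with edgeR and DESeq2.

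Old and young mutants differed in 0 genes of the 3 lists by limma, with 5, 8 and 5 at an unadjusted p under 0.05, and in 0 by edgeR, while DESeq2 called il13ra2. Between old mutants and old wildtypes, stat3 was the 1 gene called. The insulin-like growth factor list had 0 there (5 at an unadjusted p under 0.05, 0 by edgeR, 3 by DESeq2: ghrb and igfbp1b higher, the same pappa gene lower, named after their values were seen) and the transforming growth factor beta list 0 (9 unadjusted, 0 by edgeR and DESeq2). The difference of age effects was called for il13ra2 and igfbp5a (-1.05, adjusted p = 0.000491), and for 0 of the transforming growth factor beta list (9 unadjusted, 0 by edgeR and DESeq2). The igfbp5a call held in 26 of 30 alternatives. It was lost without young wildtype 2, old wildtype 4, old mutant 4 or old mutant 5, each left out alone. Each time the difference fell just under 2-fold, with an adjusted p of at most 0.00458 over all alternatives. In old against young wildtypes the median log2 fold changes of the lists were 0.03, 0.13 and -0.18, against -0.01 over all genes, and in young mutants against young wildtypes -0.06, 0.13 and -0.06, against 0.00.

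Of the 5 genes in the Mpeg1+ libraries, il4 and il13 stood higher, and il10, igf1 and tgfb3 lower, in the libraries labelled mutant. Limma called 4 of the 5, all but il4, against 8.5% of all genes tested. The paper had already reported il10, igf1 and tgfb3 as lower in these mutant cells. The share is therefore no test of the 5 genes as a set. In all 5 the labelled groups did not overlap, which held for 28.6% of genes, and each had the smallest exact permutation p that 4 against 3 libraries allow, 0.0286. That p takes the 4 mutant libraries as separate samples, whereas libraries 1 and 2, and 3 and 4, may be repeats of the same sample. With them averaged, which leaves 2 values against 3, the exact permutation p was 0.2 for il4 and il13 and 0.1, the smallest possible, for il10, igf1 and tgfb3, and limma called 0 of the 5 (4 at an unadjusted p under 0.05), and 0.085% of all genes, 18 in number.

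The libraries labelled mutant held 175, 174, 269 and 329 normalised counts of il13, against 0, 0.79 and 27.5 in those labelled wildtype. In reads these were 192 to 395, against 0, 1 and 39, so the wildtype level rested on library 3. The log2 fold change was 5.95 (SE 1.14, limma adjusted p = 0.0186, and 0.288 averaged), and it depends on the count added before taking logs because 1 wildtype library was at 0. edgeR did not call il13 (adjusted p = 0.0708). The 4 mutant values formed the same pairs as the libraries themselves, with 1 and 2 nearly equal.

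For il4 the libraries labelled mutant held 166, 199, 102 and 131 normalised counts, against 2.98, 52.9 and 28.2 in those labelled wildtype. Although no library crossed over, il4 was not called (2.99, SE 0.91, limma adjusted p = 0.0819, and 0.523 averaged), with the wildtype libraries spreading from 1 to 67 reads. Without wildtype library 2 it was called (3.76, adjusted p = 0.0160), and DESeq2 called it too (2.35, 0.00988).

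In mammals il4 and il13 are made chiefly by T cells, innate lymphocytes, mast cells and basophils. The summed level of 9 T and innate lymphocyte markers was 1109 to 1166.7 in libraries labelled mutant, against 657 to 1061.5 in those labelled wildtype. Of the 9, 0 were called higher and 1 lower. Among these markers lck, a kinase of T cells, was at 0 in all 4 mutant libraries, against 41.7 to 166.6 in wildtype ones. Another, gata3, a transcription factor of T helper 2 cells and innate lymphocytes, was at 311 to 522, against 44.2 to 477. The sum of 6 neutrophil and mast cell markers overlapped, at 1182.7 to 1732.8 against 1069.2 to 2206.5 (0 called higher and 0 lower). That of 5 B cell markers overlapped too, at 2389.4 to 2695.8 against 1393.8 to 6474.7 (2 called higher and 0 lower). The part of such cells in the il4 and il13 values was not tested further.

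Levels of il10 were 31.7, 29.9, 44.5 and 48.3 in libraries labelled mutant, against 173, 133 and 240.1 in those labelled wildtype. The log2 fold change was -2.19 (SE 0.50, limma adjusted p = 0.0323, and 0.382 averaged), and the call was also lost without wildtype library 3 (adjusted p = 0.0657). For igf1 the libraries labelled mutant held 62.8, 64.4, 73.4 and 70.7, against 271, 351 and 259.8 (-2.09, SE 0.37, adjusted p = 0.0130, and 0.275 averaged). For tgfb3 they held 63.5, 65.3, 69.3 and 77.4, against 221, 312 and 277 (-1.94, SE 0.38, adjusted p = 0.0184, and 0.311 averaged). The mutant values of igf1 and tgfb3 lay within a narrow band, well below the lowest wildtype value of each.

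These calls were sensitive to leaving out a library. Leaving out mutant library 1, 2 or 3 left 0 of the 5 genes called (igf1 at an adjusted p of 0.0519 to 0.0546), leaving out mutant 4 left 1, igf1 (0.0496), and leaving out wildtype 1, 2 or 3 left 4, 5 and 3. Each of the 5 fold changes kept its direction in these fits. At equal library totals, where the median of all genes was -0.17 (0.05 in the deposited scaling), they were -2.41 (il10), -2.31 (igf1), -2.16 (tgfb3), 2.79 (il4) and 5.81 (il13).

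**Figure D3:**
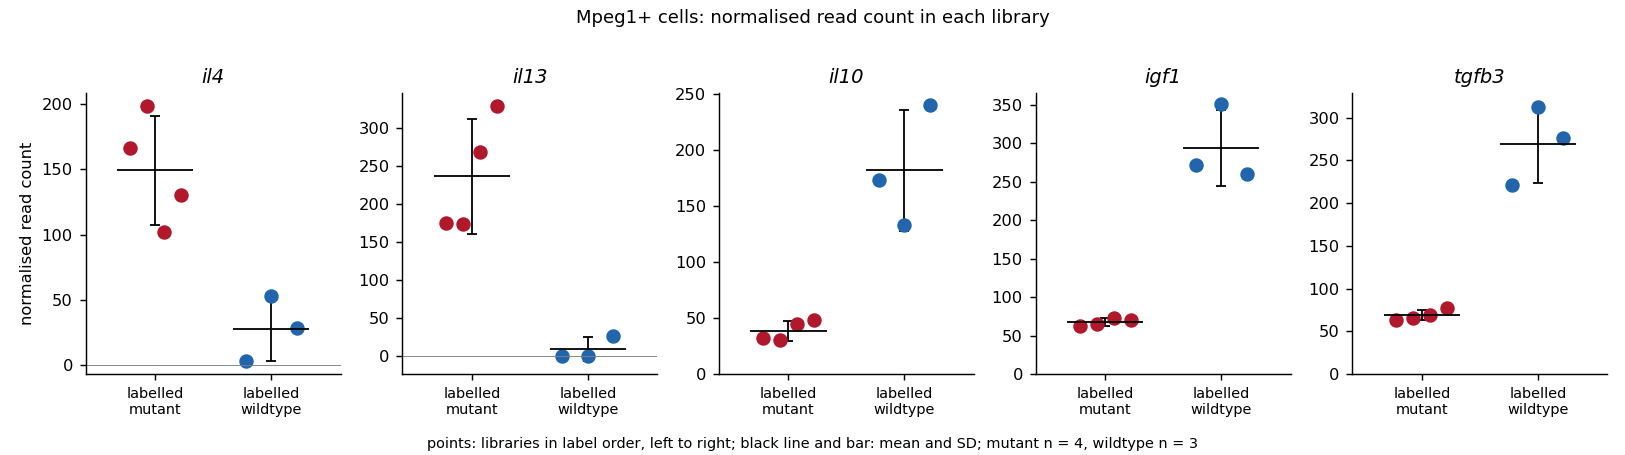
Normalised read counts of the 5 genes in Mpeg1+ libraries, labelled mutant on the left (4 points) and labelled wildtype on the right (3 points), with mean and SD. The groups do not overlap in any panel: il4 and il13 stand higher, and il10, igf1 and tgfb3 lower, in libraries labelled mutant.

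Genes of leptomeningeal fibroblasts, cells of the brain's covering, moved in the same direction as il10, igf1 and tgfb3 (7 of 13 called lower and 1 higher). The sum of the 13 such markers was 2961.5 to 3802.5 in libraries labelled mutant, against 326070 to 544190 in those labelled wildtype. Its most abundant members were epd (1957.7 to 2518 against 290060 to 519240), cp (120 to 186 against 15598 to 32522) and rbp4 (70.1 to 113.7 against 6506 to 10105), while lum was at 0 in all 3 wildtype libraries. The sum of 9 ependymoglial markers was also lower without overlap, at 77992 to 80357 against 118450 to 372180 (6 called lower), as was that of 10 oligodendroglial markers, at 1077.6 to 1148.1 against 1625.1 to 4715.1 (2 called lower). The sum of 22 immediate early and heat shock genes, which tissue handling also raises, moved the other way, at 2565700 to 2886700 against 170910 to 653420. The sums of 17 microglial markers overlapped, at 826460 to 861110 against 471070 to 876640. The part of RNA of these other cells and of the stress genes in the values of the 5 genes was not tested.

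Of the genes around these ligands in Mpeg1+ cells, 3 of 18 tested in the type 2 and il10 list were higher and 0 lower in libraries labelled mutant, where 4.93% and 3.57% of all genes were. They were the kinase gene jak1 (1.60, limma adjusted p = 0.00442), the feedback inhibitor gene socs3b (1.76, 0.0107) and il10ra, the receptor chain that binds interleukin 10, at 3302 ± 571 (n = 4) against 1576 ± 254 (n = 3) (1.06, 0.0187). In the insulin-like growth factor list 2 of 24 were higher, igf2r (1.82, 0.00261), which clears IGF2, and the receptor gene igf1ra (1.64, 0.00913). Lower were igf2a (14.5 ± 15.9 against 280 ± 98.4, -5.11, 0.0333), igfbp3 (-3.29, 0.0196) and igfbp2a (-2.58, 0.00446). The calls of jak1, igf2r and igfbp2a held in 15, 15 and 16 of 19 alternatives, and those of socs3b and igfbp3 in 14 and 11. Those of il10ra and igf2a each held in 8 of 19, and igf2a was lost with edgeR.

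In the transforming growth factor beta list 5 of 29 were higher and 2 lower. The inhibitor gene skilb (2.53, limma adjusted p = 0.0270), the receptor gene tgfbr2a (1868 ± 167 against 532 ± 141, 1.84, 0.00403) and smad4a (1.80, 0.0440) were among the higher ones. The activator gene thbs1b was lower, at 0 to 1.649 in libraries labelled mutant, against 7.107 to 214.7 in those labelled wildtype (-5.46, 0.0344). The tgfbr2a call held in 15 of 19 alternatives, against 10 for skilb, 8 for thbs1b and 7 for smad4a. With edgeR smad4a was lost, and at equal totals smad4a and skilb were. Of the 5 receptor genes in the list, tgfbr2a and tgfbr1b were called higher, while tgfb3 itself was lower, and tgfbr1a, tgfbr2b and tgfbr3 were not called (0.60, 1.58 and 0.32). List medians were 0.61, 0.00 and 0.60, against 0.05 over all genes. With alike libraries averaged limma called 0 genes in each list, with 3, 6 and 8 at an unadjusted p under 0.05.

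In the Olig2+ libraries limma called 0 of the 5 genes, 0 also at an unadjusted p under 0.05, against 19.7% of all genes tested. edgeR called 0 and DESeq2 1, il13. Mutant libraries held 6.05, 40.1, 18.4 and 10.9 normalised counts of il13, against 3.57, 3.81, 3.94 and 6.63 in wildtype libraries. The groups overlapped at 1 library on each side, and the difference was 1.58 (-0.16 to 3.33, limma adjusted p = 0.176, exact permutation p = 0.0571, where 0.0286 is the smallest p possible). DESeq2 gave 2.01 (adjusted p = 0.0484). The reads behind these values were 3 to 15 in mutants and 7 to 11 in wildtypes, and the mutant libraries were the shallower ones.

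The other 4 genes overlapped between the Olig2+ groups as well, where 24.2% of all genes did not. Mutant libraries held 56.5, 4.01, 55.1 and 65.4 of il4, against 22.2, 50.1, 17.2 and 27.7 in wildtypes (0.20, limma adjusted p = 0.892). Library 2 was the lowest of the mutants, and the other 3 lay above every wildtype library. Without it the difference was 1.09 (adjusted p = 0.152). For tgfb3 mutants held 231, 8.02, 88.2 and 105, against 113, 71.4, 97.4 and 134 in wildtypes (-0.62, 0.620), and leaving out mutant 2, with 2 reads, turned the estimate to 0.35 (0.585).

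Levels of igf1 were 53.5, 40.1, 69.8 and 50.8 in mutant, against 64.3, 125.8, 84.9 and 54.9 in wildtype Olig2+ libraries (-0.57, limma adjusted p = 0.433). Mutant 3 lay above 2 wildtype libraries, and the other mutants lay below all 4. For il10 mutants held 2.02, 0, 46.5 and 7.26, against 0.397, 1.09, 3.58 and 2.41 in wildtypes (1.17, adjusted p = 0.510). Mutant library 3 had 38 reads of il10 and no other Olig2+ library more than 10.

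**Figure D4:**
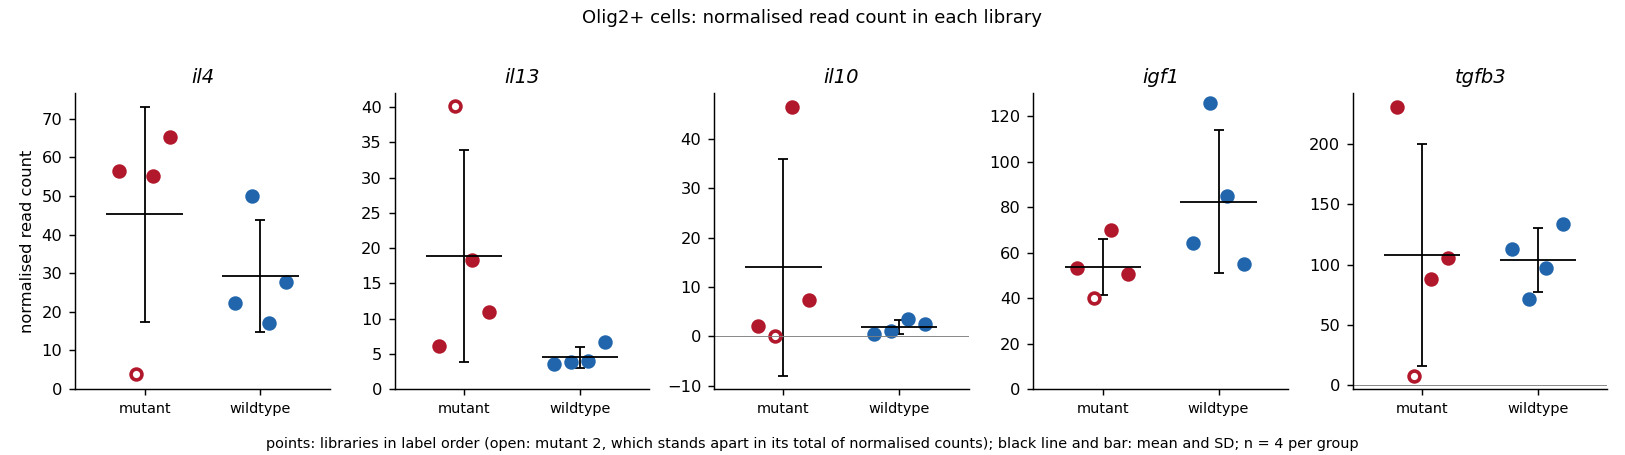
Normalised read counts of the 5 genes in Olig2+ libraries, mutant on the left and wildtype on the right (4 points each), with mean and SD. The open point is mutant library 2, the lowest mutant library for il4 (4.01), il10 (0), igf1 (40.1) and tgfb3 (8.02) and the highest for il13 (40.1).

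Markers of several cell types were present in the Olig2+ libraries. The sum of 10 oligodendroglial markers was 5187 to 9341 in mutants, against 4427 to 7987 in wildtypes (1 of 10 called higher and 1 lower). That of 17 microglial markers was 31534 to 182260, against 13136 to 76307 (5 of 16 microglial markers tested were called higher). Neuron markers were lower without overlap, at 122290 to 159090 against 172070 to 223290 in sum (3 of 14 called lower), and B cell markers higher, at 206.74 to 319.58 against 25.057 to 127.88 (2 of 3 tested called higher). As examples of single oligodendroglial markers, sox10 was at 0 in at least 1 mutant library, and olig2 was detected in every library (181 to 1280, against 763 to 1873). The mutant libraries were the shallower ones, and these single markers do not stand for the list. The part of microglia, neurons, B cells or other cells in these values was not tested.

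Among the genes around these ligands in Olig2+ cells, the kinase gene tyk2 held 2221, 2411, 2305 and 1707 normalised counts in mutants, against 428.2, 238.6, 400.1 and 255.6 in wildtypes (2.74, limma adjusted p = 0.000465). The receptor gene il10ra held 413.5, 236.7, 443.3 and 432.2, against 103.2, 30.5, 111.4 and 100.1 (2.25, 0.00767). The groups did not overlap for either gene, and both were called in each of the 16 alternatives computed. The shared receptor chain gene il2rga was also higher (1.91, 0.0257), and il10rb, the second chain of the interleukin 10 receptor, was lower (-2.11, 0.0213), but neither was called without wildtype 2, mutant 3 or mutant 4. With stat3 lower as well (-1.56, 0.0122), 3 of 17 genes of the list were higher and 2 lower, against 6.99% and 12.7% of all genes.

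In the insulin-like growth factor list 1 of 26 was higher in Olig2+ mutants, igf2r (1.098, limma adjusted p = 0.0346), and 5 were lower. They included igfbp3 (48.1 ± 35.9 against 284.5 ± 212, -2.67, 0.0165), igfbp2b (39.6 ± 24.3 against 166 ± 23.3, -2.22, 0.0120), igfbp2a (-2.07, 0.0493, lost in 9 of 16 alternatives) and the insulin receptor gene insrb (160.5 ± 7.89 against 596 ± 196, -1.81, 0.00590). In the transforming growth factor beta list 0 of 29 were higher and 8 lower. These included thbs1b (69.6 ± 29.9 against 332 ± 71.7, -2.33, 0.00476), the inhibitor gene skib (311 ± 77.2 against 1482 ± 369, -2.25, 0.00135), the receptor gene tgfbr1b (-2.21, 0.00832) and smad4a (-1.99, 0.0230, called in 12 of 16 alternatives). Both the inhibitors skib, skila, skia and tgif1 and parts of the signalling chain were thus among the lower genes. List medians were 0.12, -0.48 and -0.88, against -0.01 over all genes, while 1557 of all genes were called higher and 2820 lower.

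Across the 8 comparisons the 5 genes showed no shared direction. igf1 had its highest mean in old wildtype telencephala, called against young mutants only, and was lower in Mpeg1+ libraries labelled mutant. il4 was lower in young mutant than young wildtype telencephala, and stood higher, uncalled, in Mpeg1+ libraries labelled mutant. Whether these effects differ between tissue and sorted cells was not tested. Levels were compared only within a table, since the tables were scaled separately.

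**Figure D5:**
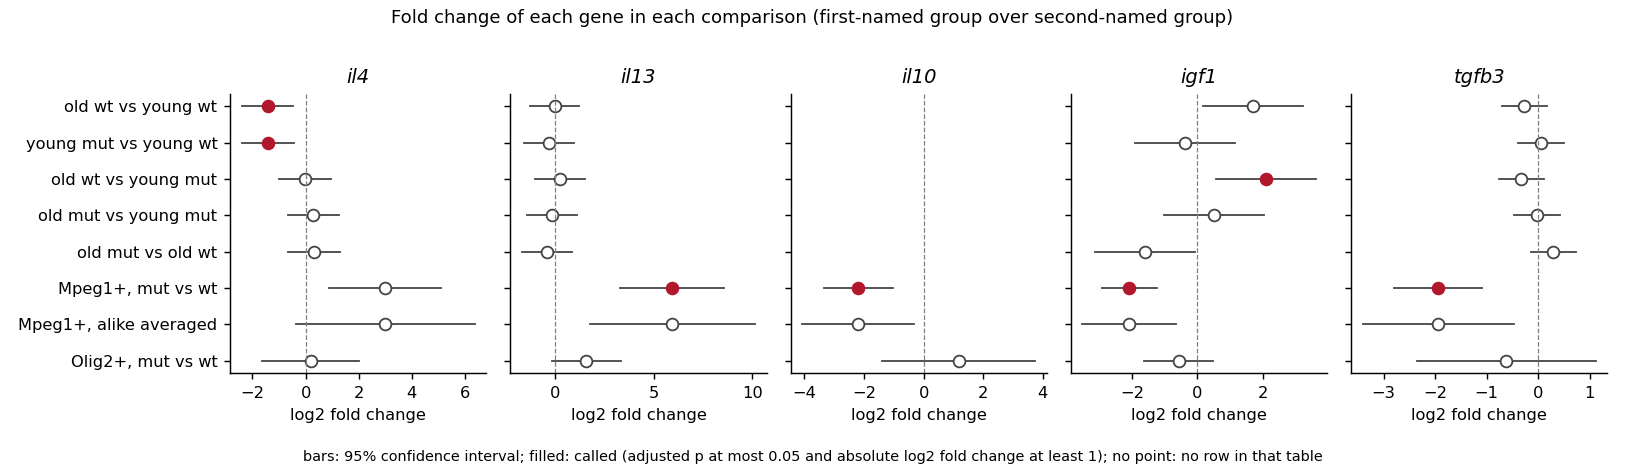
Log2 fold changes with 95% intervals for each gene (1 panel each, with its own x axis) in the telencephalon comparisons of 2 groups and in Mpeg1+ and Olig2+ cells. The Mpeg1+ row is repeated for alike libraries averaged, and the difference of age effects is not drawn. Filled points passed an adjusted p of 0.05 and a 2-fold change. The calls are il4 in 2 telencephalon comparisons, igf1 in 1, and all but il4 in Mpeg1+ cells, where averaging left none.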

How the data were processed

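RNA was sequenced from 35 libraries of zebrafish telencephalon, Mpeg1+ and Olig2+ cells (full-length cDNA by SMART-Seq v4). Per the labels and methods, the authors used STAR for alignment to GRCz10, then counted reads by gene. The signal values they deposited are gene counts after division by DESeq2 size factors, with a table for each cell population. Whole reads were recovered from them for all values (within 1e-06) and served for depth and for count tests.

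Groups were taken from the sample titles. Symbols came from a table pairing Ensembl identifiers with names, and a symbol left to 2 identifiers is given with its identifier. The genes insrb, igfbp2b, igfbp5a, skia, skila, tgfbr1a and tgfbr2b were named as the paralog that remained once the other had matched. Genes with a mean of at least 5 were tested on log2(value + 1) with limma 3.58.1 (trend and robust, R 4.3.3), with Benjamini-Hochberg adjustment over all genes of a comparison, and a call needed an adjusted p no higher than 0.05 together with a log2 difference of 1 or more in either direction. All 4 telencephalon groups entered 1 model, and each sorted population its own. Exact permutation tests of the 5 genes were two-sided, on log2(value + 1) (scipy 1.17.1). The fitting was tested on counts simulated with the same dispersion for every gene and with no alike libraries. That test does not measure how reliable the calls in the sorted cells are. The study's methods call granulin wildtypes and mutants siblings and say that the libraries were handled together, but not which of them shared parents or a dissection day, so p-values measure the spread between libraries.

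Other settings tried were a pseudocount of 0.25 or 4, the filter dropped or raised to a mean of 50, equal totals, edgeR 4.0.16 and DESeq2 1.42.0 on recovered reads, the replicate number as a block, a pineal covariate, fits of only 2 groups, and leaving out each library. Leaving out the libraries high in pineal genes, and averaging the alike Mpeg1+ libraries with each wildtype left out, were chosen after seeing the data. Which Mpeg1+ libraries to average was likewise picked from how alike their values were, since the labels do not pair them. The plan had been to average only libraries that agreed within read sampling. Neither pair met that limit (chi-square per degree of freedom of 1.788 for 1 and 2, and 9.778 for 3 and 4).

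The 5 genes and all lists were chosen with earlier results of these data known. Genes named besides the 5 are up to 4 called genes of each signalling list and comparison with the largest change, the 3 most correlated genes, grna and grnb, and the most abundant markers of a cell type list that moved with a gene. Genes outside that rule are marked or named as examples of a list. No sequences or coordinates are given.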

Additional observations from a re-analysis of the deposited data

Results flagged for a closer look

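Of 31 groups of 4 or 5 libraries examined over the 5 genes, 7 held a highest or lowest library set far apart from the rest (Dixon's test), where chance alone gives about 1 in 20. In telencephala these were il4 in young wildtype 3 (26.08, the highest of its group), igf1 in young wildtype 1 (52.19, the highest), igf1 in old wildtype 1 (9.16, the lowest) and tgfb3 in old wildtype 1 (226.7, the highest). In Olig2+ cells they were il4 in mutant 2 (4.011, the lowest), il13 in wildtype 4 (6.631, the highest) and il10 in mutant 3 (46.53, the highest). Old wildtype 1 and young wildtype 1 are among the 7 libraries high in pineal genes, and Olig2+ mutant 2 is the library with the outlying total of normalised counts. What these have to do with the levels was not tested.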

How the results depend on the processing

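The number of the 5 genes called in a comparison changed as follows. With a filter at a mean of 50 it was 0 for old against young wildtype, 0 for young mutant against young wildtype and 0 for old wildtype against young mutant, since only 1 gene was then tested. With edgeR it was 2 for old wildtype against young wildtype and 0 for young mutant against young wildtype, and 3 in Mpeg1+ cells, against 4 with limma. With DESeq2 it was 2 for old wildtype against young wildtype, 1 for old mutant against old wildtype, 1 in Olig2+ cells and 5 in Mpeg1+ cells. Without the libraries high in pineal genes it was 2 for old wildtype against young wildtype, 1 for old mutant against old wildtype and 1 for the difference of age effects. Fitted with only the 2 groups compared it was 0 for old wildtype against young mutant. With the alike Mpeg1+ libraries averaged it was 0, also with each wildtype library then left out.

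With the replicate number as a block it was 0 for old wildtype against young mutant and 0 in Mpeg1+ cells. Deviations from the group mean in same-numbered libraries of different groups had a median r of 0.069 in telencephala (-0.34 to 0.48). For other pairs the median was -0.016. Of the same-numbered pairs, 12 of 30 were above 0.1 in telencephala, 2 of 4 in Olig2+ and 0 of 3 in Mpeg1+ cells. These values do not settle whether the numbers pair libraries, and why the calls were lost was not tested.

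Leaving out 1 library gave 0 to 2 genes for old against young wildtype, 0 to 1 for young mutant against young wildtype, 0 to 1 for old mutant against old wildtype, 0 to 1 for old wildtype against young mutant, 0 to 1 for the difference of age effects and 0 to 5 in Mpeg1+ cells. Of 693 alternative results of the 5 genes one by one, 583 kept direction and side of the threshold, 54 lost a call, 14 gained one, 42 had an uncalled value change sign, and 0 called values turned round. Rescaling moved the split of all genes: in Mpeg1+ cells 1042 were called higher and 756 lower, against 779 and 1129 at equal totals (746 and 728 with edgeR, 1571 and 2031 with DESeq2), and in Olig2+ cells 1557 and 2820, against 878 and 3763 at equal totals (2835 and 3300 with DESeq2). Low counts limit il4 and il13 in telencephalon and il10 and il13 in Olig2+ cells.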
